A study of Mus musculus with 3 samples.

Results

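Interferon-induced GTPases and antiviral genes were described in RNA-seq libraries of cells sorted from mouse lung. Members were the protein-coding genes of the deposited table whose symbols begin with Gbp, Ifit, Ifi, Oas or Irgm, each followed by a number or letter as the family is written, together with Igtp, Iigp1, Isg15, Isg20, Mx1, Rsad2, Usp18, Irf1, Irf7 and Irf9. This rule took 51 of 48709 genes. Mx2, which the rule also names, is annotated as a polymorphic pseudogene and was left out by its biotype, as were Gbp11, Oas1b and the pseudogene Gbp2-ps. The study has 3 libraries in 1 group, wild type (WT), labelled as lung smooth muscle cells. All came from transgenic mice with creERT2, a recombinase active in the presence of tamoxifen and driven here by smooth muscle actin, and with the red fluorescent reporter tdTomato. The mice received tamoxifen at 75 mg/kg daily for 10 days from an age of 8 weeks, and cells of the digested lungs were sorted 2 months later, with a gate that the labels do not name. All libraries share these alleles and the treatment, so the account below describes levels and compares no conditions. The labels give no strain and do not say that the libraries are from separate mice, so the spread between them, and p-values resting on it, may be technical.

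Interferons are secreted proteins that cells release when they sense virus or other microbes. Type I interferons act through Ifnar1 and Ifnar2 and lead to a complex, with Stat2 and Irf9 among its subunits, that binds a DNA element called ISRE. Type II interferon, the product of Ifng, acts through Ifngr1 and Ifngr2 and drives genes through an element called GAS. The genes they induce include GTPases that attack the membranes around intracellular microbes, proteins that bind foreign RNA, and synthetases that make a second messenger when they meet double-stranded RNA. In lung these genes are expressed by epithelium, endothelium, stroma and leukocytes.

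The sequences that carry these elements were read from promoter windows of RefSeq (build GRCm38.p6), each spanning 250 bases before to 50 after a gene's start. This start can differ from the one in the deposited table. Windows were matched by symbol for 36 of 51 members, some with several starts, which gave 45 windows. The ISRE core, GAAA followed by any 2 bases and GAAA again, on either strand, was in 22 of the 45 windows (48.9%), against 3.44% of all 32851 windows. By gene, 21 of 36 members held it. The stretches below show it beside the RefSeq start of members of 5 families, 5′ to 3′ on the gene's strand. The core is in capitals and reads TTTC, 2 bases and TTTC where it lies on the opposite strand.
Gbp2 (chr3:142620589-142620628, plus strand): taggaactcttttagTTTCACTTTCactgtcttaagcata
Gbp7 (chr3:142530268-142530307, plus strand): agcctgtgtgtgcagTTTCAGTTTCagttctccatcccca
Igtp (chr11:58199507-58199546, plus strand): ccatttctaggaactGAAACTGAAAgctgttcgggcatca
Irgm2 (chr11:58214898-58214937, plus strand): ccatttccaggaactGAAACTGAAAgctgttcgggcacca
Isg15 (chr4:156200866-156200905, minus strand): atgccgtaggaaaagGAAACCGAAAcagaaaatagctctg
Ifit1 (chr19:34640770-34640809, plus strand): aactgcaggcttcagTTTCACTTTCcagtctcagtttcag
Ifit1bl2 (chr19:34640770-34640809, minus strand): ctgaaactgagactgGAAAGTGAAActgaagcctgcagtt
Ifit3 (chr19:34583392-34583431, plus strand): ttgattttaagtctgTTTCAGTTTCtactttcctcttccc
Ifit3b (chr19:34607788-34607827, plus strand): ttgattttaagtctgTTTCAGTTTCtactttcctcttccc
Ifi203 (chr1:173942503-173942542, minus strand): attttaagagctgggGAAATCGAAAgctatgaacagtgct
Ifit1 and Ifit1bl2 are transcribed away from each other and hold the same bases, read from opposite strands. The stretches of Ifit3 and Ifit3b are identical and those of Igtp and Irgm2 nearly so, so members of a family are not independent cases. Isg15 held 3 matches, which overlap.

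The GAS element TTCNNNGAA was in 10 of 45 windows (22.2%), against 8.30% of all windows, and the TATA box TATAAA in 10 of 45 (22.2%), against 13.6%. GAS was in the windows of Irf1, Gbp5, Gbp7, Igtp, Irgm2, Oas1a, Ifi35, Ifit2, Isg20 and Ifi202b. In Igtp and Irgm2 it overlapped none of the ISRE core but lay just before it. It is shown in capitals for Irf1 and Igtp, genes that lead their groups of members by level below.
Irf1 (chr11:53769909-53769947, plus strand): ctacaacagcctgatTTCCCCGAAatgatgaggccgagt
Igtp (chr11:58199496-58199534, plus strand): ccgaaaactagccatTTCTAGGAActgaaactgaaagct
Members with and without the ISRE core overlapped in level. The median RPKM (reads per kilobase of exon per 1000000 counts) was 4.61 over 21 members with it (range 0.626 to 26.1) and 6.05 over 15 members without it (range 0.0133 to 38.9). A match describes these letters only and is not evidence of binding.

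**Figure D1:**
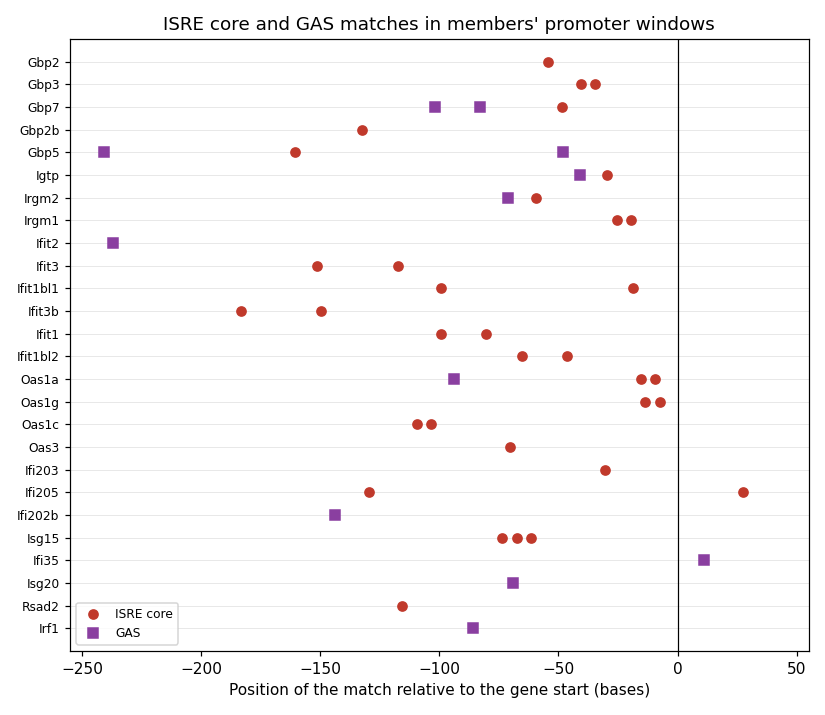
Positions of ISRE core (circles) and GAS (squares) matches in the promoter windows of members, in bases relative to the RefSeq start of the window at 0, 1 row per member. Most ISRE core matches lie before that start, such as that of Gbp2, whose first base is 59 bases before it, and Ifi205 has 1 match after it. The Gbp2 model of the deposited table begins farther upstream, at 142620602, so its core lies within that model. Matches of other members also lie within their deposited models, among them Irgm2, whose model begins at 58199618, Ifi203, Gbp5 and Irgm1.

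Library totals were 18896263, 18355813 and 16877297 counts for WT libraries 1, 2 and 3. Levels of 1 gene are given as counts per 1000000 counts of the library (CPM), as mean ± SD of 3 libraries. Levels are compared between genes as CPM per kilobase of exon (RPKM), while counts of genes past a level use CPM. A count of 0 allows up to 3 counts, which equal 0.159 to 0.178 CPM, for counting error only. The TMM method, which assumes that most genes do not differ between libraries, gave factors of 0.951, 0.983 and 1.07, and moves library 3 against library 1 by 0.17 on the log2 scale. Markers of the labelled cell type were present, with 6 of 10 smooth muscle markers averaging 10 CPM or more, but their median of 1.58 ± 0.23 log2(RPKM + 0.1) lay below the 5.21 ± 0.29 of T cell and 4.93 ± 0.55 of B cell markers. Acta2, smooth muscle actin, had 13.2 ± 3.36 CPM and Cnn1, calponin, 0.226 ± 0.200 CPM. Markers of T cells, B cells, natural killer cells, endothelium, fibroblasts and epithelium were also present, and none of the marker genes examined was at 0 in every library. The summed CPM was 687 to 949 for 8 T cell markers, 522 to 1048 for 6 B cell markers, 314 to 694 for 6 natural killer cell markers and 141 to 188 for the 10 smooth muscle markers. It was 288 to 889 for 7 monocyte and macrophage markers, 377 to 669 for 6 endothelial and 740 to 1517 for 6 fibroblast markers. It was 95.2 to 137 for 6 markers of plasmacytoid dendritic cells. Library 1 was highest in the sums of epithelial, macrophage and endothelial markers. It was lowest in the fibroblast sum, at 740 CPM against 1451 and 1517. It had 2179 CPM for 6 alveolar markers against 430 and 515 in libraries 2 and 3, and 13730 CPM for 4 airway markers against 2773 and 7883. It had 889 CPM for the macrophage markers against 288 and 372, and 669 CPM for the endothelial markers against 377 and 458. Lyz2 alone had 704, 189 and 235 CPM of the macrophage sums. Csf1r, Cd68 and Adgre1 were also highest in library 1. Mrc1 and Marco were about level between libraries 1 and 2, and Ly6c2 was highest in library 3. Siglech, a defining marker of plasmacytoid dendritic cells, which make type I interferon, had 0.622 ± 0.528 CPM. In these bulk libraries, fewer cells of a type and less RNA per cell cannot be told apart, and the part of each cell type in the levels below was not tested.

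Most members were detected. Of 51 members, 45 (88.2%) averaged 1 CPM or more, against 59.4% of 22005 nuclear protein-coding genes, and 30 (58.8%) reached 10, against 35.8%. Only Irf1 and Ifi203 (3.92%) averaged 100 CPM or more, against 5.89%. When counts were scaled to the protein-coding total, 5 members reached 100. That total is 56.9% to 63.0% of counts, so every gene's value rises, and the share of all genes reaching 100 was not computed there. The median over members was 3.97 ± 0.16 log2(CPM + 1), and 2.00 ± 0.08 over all nuclear protein-coding genes. Per kilobase it was 2.18 ± 0.13 log2(RPKM + 0.1), against -0.10 ± 0.09. The members together had 1221, 1322 and 1382 CPM in libraries 1, 2 and 3, a sum that ordered the libraries differently under TMM scaling, at 1285, 1345 and 1291. In 3 members, Oas1f, Oas1h and Ifi44l, fewer than 10 counts were found over the libraries.

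**Figure D2:**
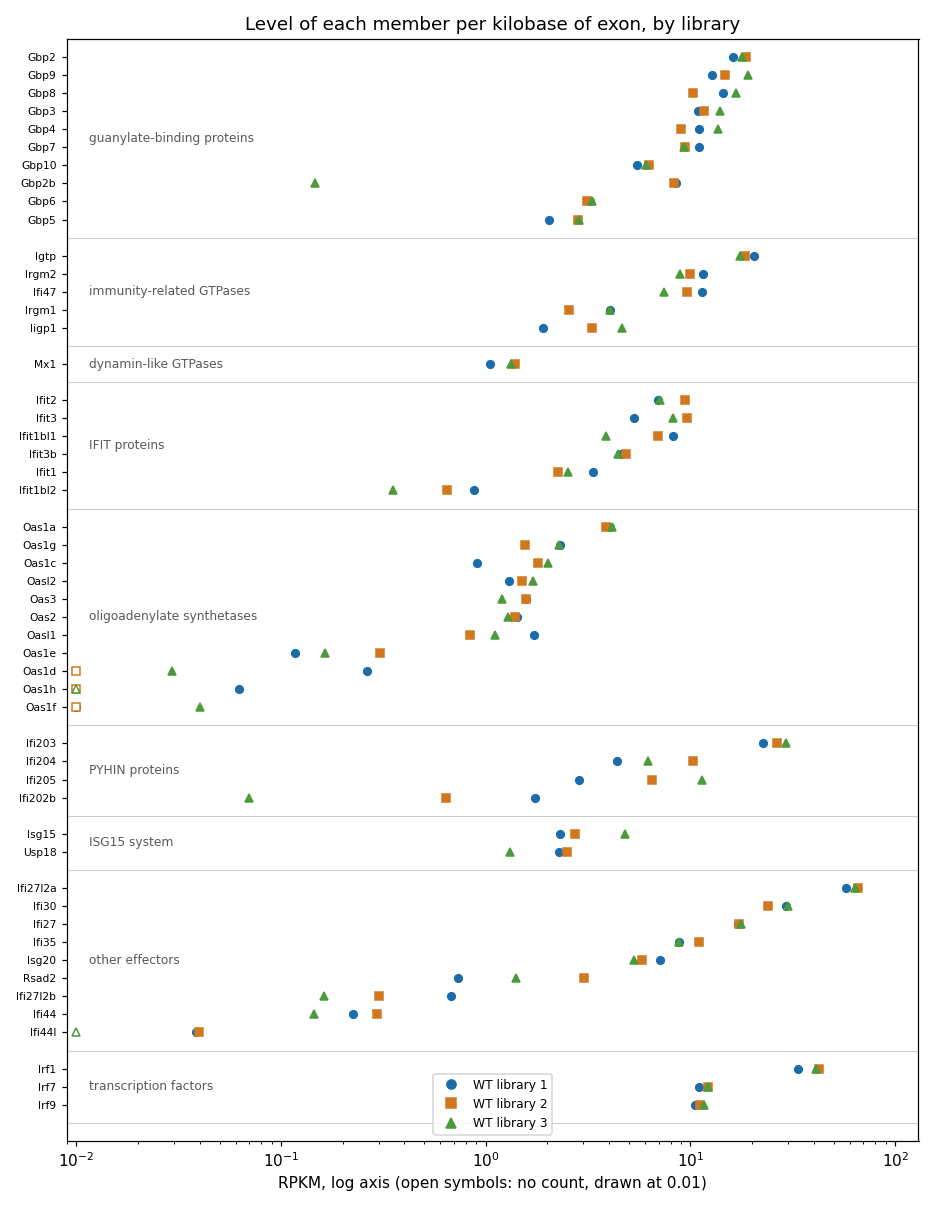
Level of each of the 51 members in RPKM on a log axis, 1 symbol per library, grouped by role and ordered by mean within a role. Ifi27l2a and Irf1 lie farthest right, the 3 libraries nearly coincide for most genes, and Gbp2b stands apart in library 3.

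The transcription factors of the response were among the highest members. Irf1, a factor that interferon induces and that drives many GTPase genes (ENSMUSG00000018899, chromosome 11, 53770014 to 53778374), had 133, 169 and 163 CPM in libraries 1, 2 and 3. Its level of 38.9 ± 4.91 RPKM ranked 541 of 21839 nuclear protein-coding genes with an exon length. Irf7, the factor that amplifies type I interferon production, had 41.5, 45.8 and 45.9 CPM, and Irf9, the DNA-binding subunit of the ISRE complex, 56.4, 60.0 and 62.9 CPM. Neither was called as varying between libraries. Within libraries Irf1 exceeded Irf7 by 1.72 ± 0.11 and Irf9 by 1.80 ± 0.13, as log2 ratios of counts per kilobase. Irf9 lay just below Irf7 in each of the 3 libraries, at -0.08 ± 0.03. That order turns with the setting, since Irf9 has 5386 exon bases and Irf7 3776, and the ratio of counts alone was 0.43. An exact two-sided sign-flip test over 3 libraries cannot give a p below 0.25, so ratios carry no test.

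Guanylate-binding proteins are large GTPases that assemble on the membranes of vacuoles and bacteria. All 10 members averaged between 10 and 100 CPM. The family lies in 2 clusters, with Gbp2, Gbp2b, Gbp3, Gbp5 and Gbp7 on chromosome 3 (142493978 to 142638008) and Gbp4, Gbp6, Gbp8, Gbp9 and Gbp10 on chromosome 5 (105014150 to 105293698).

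Per kilobase Gbp2 was the highest of the family, at 17.5 ± 1.28 RPKM, followed by Gbp9 at 15.5 ± 3.32 and Gbp8 at 13.8 ± 3.26, which overlap within their SD. Gbp2 had 40.7, 47.1 and 44.7 CPM, and exceeded Gbp3 by 0.53 ± 0.17 and Gbp7 by 0.83 ± 0.24 on the log2 scale per kilobase. The order of Gbp2 and Gbp7 depends on length, and the ratio of their counts alone was -0.33. Gbp4 had 82.4, 67.5 and 102 CPM, Gbp8 49.9, 35.4 and 57.5 CPM, and Gbp9 65.6, 76.3 and 99.2 CPM. All 3 were highest in library 3, also under TMM scaling. Their annotated models begin at nearly the same base and share 60 or 61 exon bases. Per kilobase Gbp4 lay below Gbp8 at -0.30 ± 0.10, whereas the ratio of counts alone was 0.83.

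Gbp7 had 61.8, 52.8 and 52.4 CPM and Gbp3 35.7, 38.0 and 45.6 CPM. Gbp5, which promotes inflammasome assembly, was the lowest of the family per kilobase at 2.57 ± 0.459 RPKM, with 13.5, 18.8 and 18.8 CPM. Gbp6 had 19.3, 18.6 and 19.6 CPM and Gbp10 21.1, 24.4 and 23.5 CPM. Of all 50-base stretches of their transcripts (words), 70.7% and 84.1% recur in another gene, and both overlap the exons of Gm43302, so their split is uncertain. Gbp11, outside the rule by its biotype, had 16.8, 16.0 and 16.9 CPM.

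Gbp2b, a close relative of Gbp2 also known as Gbp1 (ENSMUSG00000040264, chromosome 3, 142594847 to 142619179), was present in libraries 1 and 2 and nearly absent in library 3. It had 454, 431 and 7 counts, or 24.0, 23.5 and 0.415 CPM. Library 1 exceeded library 3 by 57.9-fold (exact 95% binomial interval 27.9 to 145, counting error only) and library 2 did so by 56.6-fold (27.2 to 142). Its expression is known to differ between inbred mouse strains, and the part of strain was not tested. Its neighbours did not share the pattern: in library 3 Gbp2, which begins just past its end, had 44.7 CPM, and Gbp3, Gbp5 and Gbp7 had 45.6, 18.8 and 52.4 CPM. Gbp2b shares only 1.84% of its words with another gene. A search chosen after these values were seen took nuclear protein-coding genes with at least 10 CPM in both other libraries and asked which lay at least 20-fold below both in 1 library. For library 3, 1 of 7261 genes passed, and it was Gbp2b. For libraries 1 and 2, 0 of 7522 and 0 of 7458 genes did. The contrast between libraries depends on the threshold: at 10-fold 1, 0 and 1 genes passed for libraries 1, 2 and 3, and at 5-fold 1, 1 and 3 genes.

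Immunity-related GTPases are smaller proteins that load onto or regulate traffic to vacuoles with parasites or bacteria. All 5 members averaged 10 CPM or more. Igtp, a regulator also called Irgm3 (ENSMUSG00000078853, chromosome 11, 58199556 to 58207591), led these members at 18.8 ± 1.45 RPKM. It had 41.2, 37.3 and 35.5 CPM. Irgm2, another regulator, had 42.3, 36.7 and 32.6 CPM, and Ifi47, also called Irgd, 28.0, 23.8 and 18.4 CPM. Each of these was highest in library 1 and lowest in library 3. The T cell marker sum was also lowest in library 3, at 949, 947 and 687 CPM, but nearly equal in libraries 1 and 2. Of these markers Lck, Cd4, Cd8b1 and Cd3d were highest in library 2. The alveolar, airway, macrophage and endothelial marker sums were also highest in library 1 but lowest in library 2. Their part in the result was not tested. Igtp and Irgm2 overlap on the same strand and share 162 exon bases, which is 8.01% of those of Igtp, so part of their counts may not be separable. Per kilobase Igtp exceeded Irgm2 by 0.90 ± 0.08 in log2, with the same sign in each library, and Irgm1 lay below Irgm2 at -1.53 ± 0.42 and below Igtp at -2.43 ± 0.38. Irgm1, a regulator needed for control of mycobacteria, had 23.5, 14.8 and 23.6 CPM.

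Iigp1, also called Irga6, an effector that coats parasite vacuoles, had the opposite order of libraries, at 11.1, 19.1 and 26.9 CPM. The marker sums of B cells (522, 785 and 1048 CPM), natural killer cells (314, 436 and 694 CPM) and fibroblasts (740, 1451 and 1517 CPM) had that order too. Not every marker followed its sum. The fibroblast markers Col1a1, Col1a2 and Lum were highest in library 2, and the natural killer cell marker Klrk1 was lowest there. The part of these cell types in the result was not tested. Iigp1 lay below Igtp at -2.61 ± 0.75. Of 6 other genes of the family that the rule does not take, all averaged 1 CPM or more and 3 reached 10. Those were Tgtp2 at 61.1 ± 3.87 CPM, Tgtp1 at 39.0 ± 5.85 CPM and Irgq at 16.2 ± 4.03 CPM, and Gm4951 had 1.78 ± 1.42 CPM. Tgtp2 had 20.8 ± 1.32 RPKM, above the 18.8 ± 1.45 of Igtp, though these overlap within their SD. Tgtp1 and Tgtp2 are near-copies, with 81.2% and 86.6% of words found elsewhere. Mx1 is a dynamin-like GTPase that blocks influenza virus and is defective in many inbred strains. It had 3.97, 5.23 and 5.04 CPM, or 1.25 ± 0.179 RPKM, rank 9963 of 21839. Mx2, outside the rule, had 1.27, 3.98 and 4.68 CPM, and the ratio of Mx1 to Mx2 was 0.64 ± 0.81, above 0 in each library but within its SD of 0.

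IFIT proteins bind viral RNA through tetratricopeptide repeats. The 6 members lie within 99.3 kilobases of chromosome 19 (34550694 to 34650009), and 3 averaged 10 CPM or more. Ifit2, which also promotes cell death, had 27.1, 37.0 and 27.8 CPM, and its 7.81 ± 1.41 RPKM overlapped the 7.68 ± 2.20 of Ifit3. Ifit1, which binds the 5′ end of viral RNA, had 8.89, 5.99 and 6.70 CPM and lay below Ifit2 in each library, by 1.53 ± 0.51 in log2 per kilobase. The orders of the libraries differed between these neighbours, with Ifit1 highest in library 1 and Ifit2 highest in library 2. Ifit3 had 9.21, 16.7 and 14.3 CPM and Ifit3b 9.10, 9.70 and 8.89 CPM. They have 51.2% and 45.0% of words in common with other genes, nearly all with each other, and are uncertain singly.

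Ifit1bl1 had 18.5, 15.7 and 8.71 CPM and Ifit1bl2 2.96, 2.18 and 1.19 CPM. Both were lowest in library 3, as were the T cell markers in sum, at 949, 947 and 687 CPM, whose part in this was not tested. Ifit1bl2, which shares its start region with Ifit1, was lower than Ifit1 per kilobase in every library, at 0.626 ± 0.265 against 2.71 ± 0.569 RPKM.

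Oligoadenylate synthetases make short adenylate chains when they bind double-stranded RNA. As a group they had a median of 0.48 ± 0.10 log2(RPKM + 0.1). This lay below the 2.32 ± 0.24 of IFIT genes and the 3.40 ± 0.16 of guanylate-binding proteins. It lay above the -0.10 ± 0.09 of all nuclear protein-coding genes. Of 11 members, 7 (63.6%) averaged 1 CPM or more, against 59.4% of nuclear protein-coding genes. Only 1, Oas3 (9.09%), reached 10, against 35.8%. Oas3, the largest of the synthetases, had 11.2, 11.2 and 8.47 CPM, and Oas2 6.30, 6.16 and 5.69 CPM. Per kilobase the ratio of Oas2 to Oas3 was -0.08 ± 0.16 with no common sign. Oas1a was the highest per kilobase at 4.02 ± 0.139 RPKM, with 7.62, 7.30 and 7.82 CPM. It shares 57.6% of its words with Oas1g, itself at 5.40, 3.65 and 5.33 CPM, so their split is uncertain.

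Of the other copies of Oas1, 4 had few counts. Oas1d had 10, 0 and 1 counts, Oas1e 4, 10 and 5, Oas1h 2, 0 and 0, and Oas1f 0, 0 and 1. Oas1c, an inactive copy, had 2.17, 4.30 and 4.86 CPM. The synthetase-like genes Oasl2, at 8.31, 9.59 and 10.9 CPM, and Oasl1, which limits Irf7 translation, at 4.50, 2.18 and 2.90 CPM, had a ratio of 0.35 ± 0.66 with no common sign.

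PYHIN proteins, from the p200 family, bind DNA. Ifi203 (ENSMUSG00000039997, chromosome 1, 173920407 to 173942672) had 152, 177 and 197 CPM, or 26.1 ± 3.41 RPKM. Ifi204, at 15.6, 36.5 and 22.1 CPM, lay below it in each library, by 1.99 ± 0.55 in log2 per kilobase, and 20.02% of its words recur elsewhere. Ifi205 had 11.96, 27.1 and 47.7 CPM, a range of 3.99-fold, or 3.54-fold under TMM scaling. The order of libraries for Ifi205 was also that of the B cell markers, at 522, 785 and 1048 CPM in sum, and of the natural killer cell markers, at 314, 436 and 694 CPM. The fibroblast marker sum had it too, at 740, 1451 and 1517 CPM. As for Iigp1, the single markers Klrk1, Col1a1, Col1a2 and Lum did not follow this order. The part of these cell types in the result was not tested. Ifi202b, a family member known to be expressed in some inbred strains and not in others, had 56, 20 and 2 counts. Library 1 exceeded library 3 by 25.0-fold, with an exact 95% binomial interval of 6.61 to 212.

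**Figure D3:**
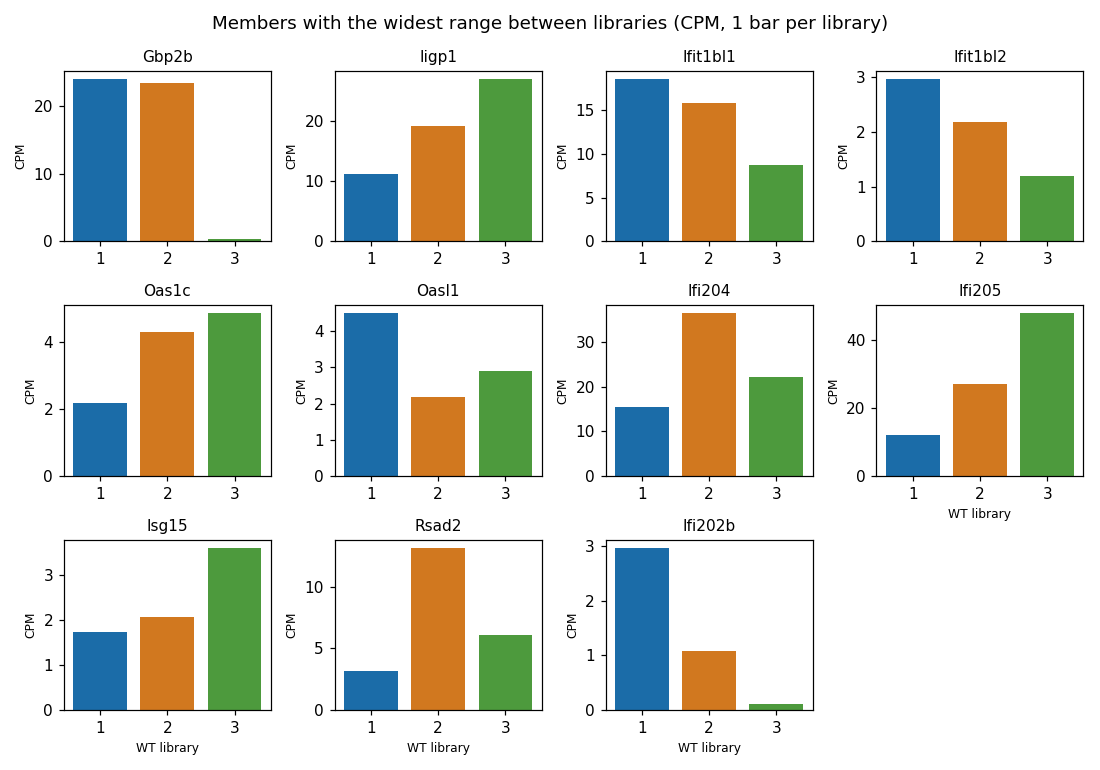
CPM in each WT library, 1 bar per library, for the 10 members with at least 100 counts and a range of at least 2-fold between libraries, and for Ifi202b. Each panel has its own scale from 0. Gbp2b has 24.0 and 23.5 CPM in libraries 1 and 2 and 0.415 CPM in library 3, and Rsad2 is highest in library 2.

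The ubiquitin-like modifier Isg15 had 3.28 ± 1.32 RPKM, rank 6857 of 21839. The protease that removes it, Usp18, had 2.03 ± 0.628 RPKM, rank 8530. Both lay below the members' median of 4.615 RPKM but above the 0.858 of all nuclear protein-coding genes. Isg15 had 33, 38 and 61 counts, or 1.75, 2.07 and 3.61 CPM, and Usp18 had 6.35, 6.97 and 3.67 CPM. Their ratio per kilobase, 0.68 ± 1.02, was close to 0 in libraries 1 and 2 and 1.86 in library 3, and by counts alone it was -1.20. Of 4 enzymes that attach Isg15, all averaged 1 CPM or more and 3 reached 10. Trim25, a ligase, had 120 ± 24.1 CPM, Uba7, the activating enzyme, 33.8 ± 4.08 CPM, Herc6, the ligase of mouse cells, 26.3 ± 2.67 CPM, and Ube2l6, the conjugating enzyme, 7.97 ± 1.89 CPM.

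Among other effectors, Ifi27l2a had the highest level of all members per kilobase. This small mitochondrial or nuclear membrane protein is encoded on chromosome 12 (103442167 to 103443680) with only 463 exon bases. It had 26.6, 30.6 and 29.4 CPM, or 62.3 ± 4.45 RPKM, rank 320 of 21839. Its neighbour Ifi27 had 25.1, 25.3 and 25.8 CPM, and its log2 ratio to Ifi27l2a per kilobase was -1.85 ± 0.10. The third gene of this cluster, Ifi27l2b, had 14, 6 and 3 counts. Ifi30, a lysosomal thiol reductase used in antigen processing, had 28.7, 23.5 and 29.3 CPM and exceeded Ifi35 by 1.54 ± 0.37. Ifi35, with 15.2, 19.1 and 15.2 CPM, overlaps an antisense gene over 16.8% of its exon bases, and the sources used here do not say whether counting used strand.

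Isg20, an exonuclease for RNA, had 13.2, 10.7 and 9.84 CPM. Rsad2, or viperin, which makes a nucleotide that stops viral polymerases, had 60, 241 and 103 counts, or 3.18, 13.1 and 6.10 CPM. It was highest in library 2 and ranged 4.13-fold. Isg20 exceeded it by 2.03 ± 1.17 in log2 per kilobase, with the same sign in each library. The smooth muscle markers also summed highest in library 2, at 141, 188 and 156 CPM. Not every marker followed this sum. Smtn was highest in library 1, at 22.0, 12.3 and 13.2 CPM, and Tagln was lowest in library 3. The plasmacytoid dendritic cell markers Ccr9 and Bst2 were highest in library 2. Their list summed highest in library 3, at 95.2, 110 and 137 CPM. The part of these cell types in the result was not tested. Ifi44 had 26, 33 and 15 counts and Ifi44l 1, 1 and 0.

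**Figure D4:**
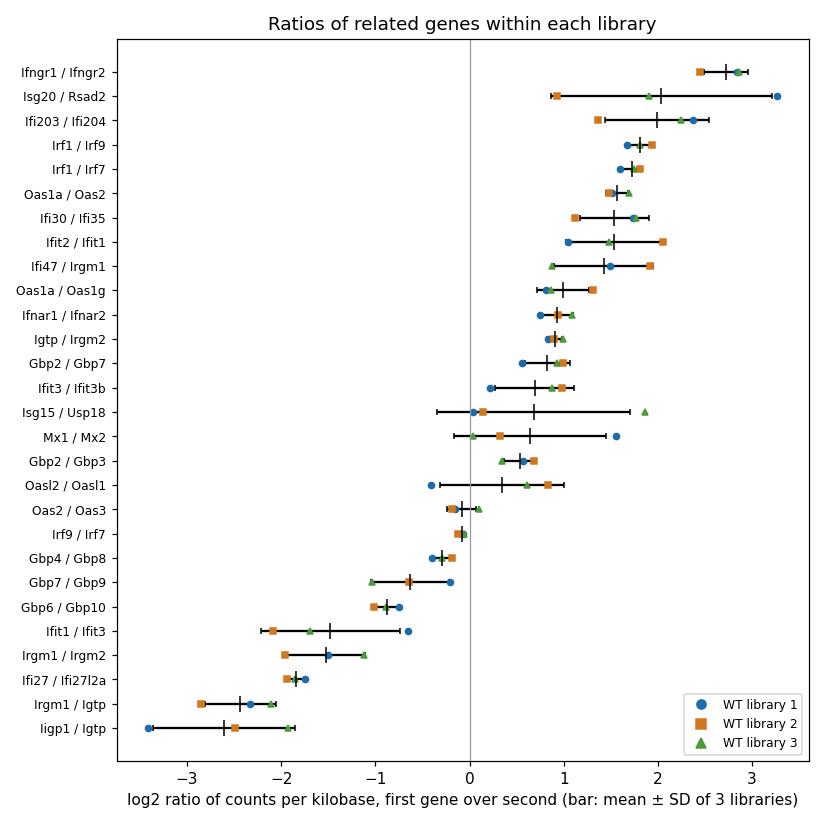
Log2 ratios of counts per kilobase for 28 pairs of related genes, 1 symbol per library, with the mean and SD of 3 libraries as a bar. The ratio of Iigp1 to Igtp is the lowest at -2.61 and that of Ifngr1 to Ifngr2 the highest at 2.72.

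Differences between libraries were set against counting error with a chi-square test of homogeneity, adjusted over all genes. Of 48 members with at least 10 counts, 35 (72.9%) varied beyond counting error, against 70% of 23317 genes tested and 73.1% of nuclear protein-coding genes, so the members' share was near the background. Without library 1, 23 of 46 (50%) were called, against 38.2% of genes. The test compares these libraries, not conditions. By role, 5 of 5 immunity-related GTPases, 4 of 4 PYHIN genes and 7 of 10 guanylate-binding proteins varied, as did 5 of 6 IFIT genes, 5 of 9 synthetases, 2 of 2 genes of the Isg15 system, 6 of 8 other effectors and 1 of 3 transcription factors, Irf1. The 13 members not called were Irf7, Irf9, Gbp3, Gbp6, Gbp10, Mx1, Ifit3b, Oas1a, Oas1e, Oas2, Oasl2, Ifi27 and Ifi27l2a. Of 43 members with at least 100 counts, 10 (23.3%) ranged at least 2-fold between libraries, against 16.7% of nuclear protein-coding genes. They were Gbp2b, Iigp1, Ifit1bl1, Ifit1bl2, Oas1c, Oasl1, Ifi204, Ifi205, Isg15 and Rsad2. Under TMM scaling 9 did (20.9%), against 15.6%, with Usp18 in place of Oas1c and Isg15. The median coefficient of variation was 15.4% over those 43 members and 17.2% over 12006 nuclear protein-coding genes.

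The CPM was highest in library 1 for 15 of 48 members (31.2%), against 29.9% of nuclear protein-coding genes, in library 2 for 15 (31.2%), against 24.8%, and in library 3 for 18 (37.5%), against 45.2%. Under TMM scaling the counts were 21, 17 and 10, against 39.1%, 30.9% and 29.9% of genes. Scaling therefore sets which library holds most maxima.

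The signals upstream were uneven. Of 21 interferon genes, 1, Ifng, averaged 1 CPM or more, and 9, among them Ifnb1, had no count in any library. Ifng, made by T cells and natural killer cells, had 11.2, 11.2 and 18.2 CPM and 19.9% of its words recur in another gene. In the alpha family, whose copies share sequence, 5 genes had the same 2, 0 and 0 counts. Of 6 receptor genes, 5 averaged 10 CPM or more. Ifngr1 had 270 ± 8.33 CPM and exceeded Ifngr2 by 2.72 ± 0.23 in log2 per kilobase, and Ifnar1, at 101 ± 11.4 CPM, exceeded Ifnar2 by 0.93 ± 0.17. Ifnlr1, the receptor for lambda interferons used by epithelium, had 22, 0 and 5 counts.

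Of 10 signal transducers, 9 averaged 10 CPM or more. Jak1, a kinase of both receptor types, had 713 ± 51.6 CPM or 98.7 ± 7.14 RPKM, the phosphatase Ptpn6 198 ± 9.89 CPM or 70.5 ± 3.53 RPKM, and the kinase Jak2 125 ± 16.0 CPM or 24.9 ± 3.19 RPKM. Stat2 had 38.2, 50.4 and 54.5 CPM. Socs1, a feedback inhibitor, had 9.47 ± 0.998 CPM or 3.26 ± 0.343 RPKM. Of 16 genes of sensors and their signalling, 16 averaged 1 CPM or more and 13 reached 10. The factor Irf8 had 118 ± 49.5 CPM or 16.7 ± 7.02 RPKM, the kinase Tbk1 58.0 ± 9.83 CPM or 14.8 ± 2.51 RPKM, and the RNA sensor Ddx58 63.9 ± 7.09 CPM or 9.07 ± 1.005 RPKM. Tlr3, a sensor of double-stranded RNA, had 3.33 ± 1.496 CPM or 0.639 ± 0.287 RPKM.

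Of 27 other interferon-induced genes outside the rule, 24 averaged 1 CPM or more, 17 reached 10 and 5 reached 100. The nuclear body gene Sp100 had 328 ± 31.9 CPM or 43.4 ± 4.22 RPKM, Samhd1, which depletes nucleotides, 391 ± 40.0 CPM or 42.7 ± 4.37 RPKM, and Parp14 179 ± 7.10 CPM or 19.2 ± 0.763 RPKM. The chemokines had few counts. Cxcl10 had 23, 68 and 52 counts, Cxcl9 0, 6 and 3 and Cxcl11 0, 0 and 2. Per kilobase the list median was 3.08 ± 0.01 log2(RPKM + 0.1), against 2.18 ± 0.13 for the members.

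**Figure D5:**
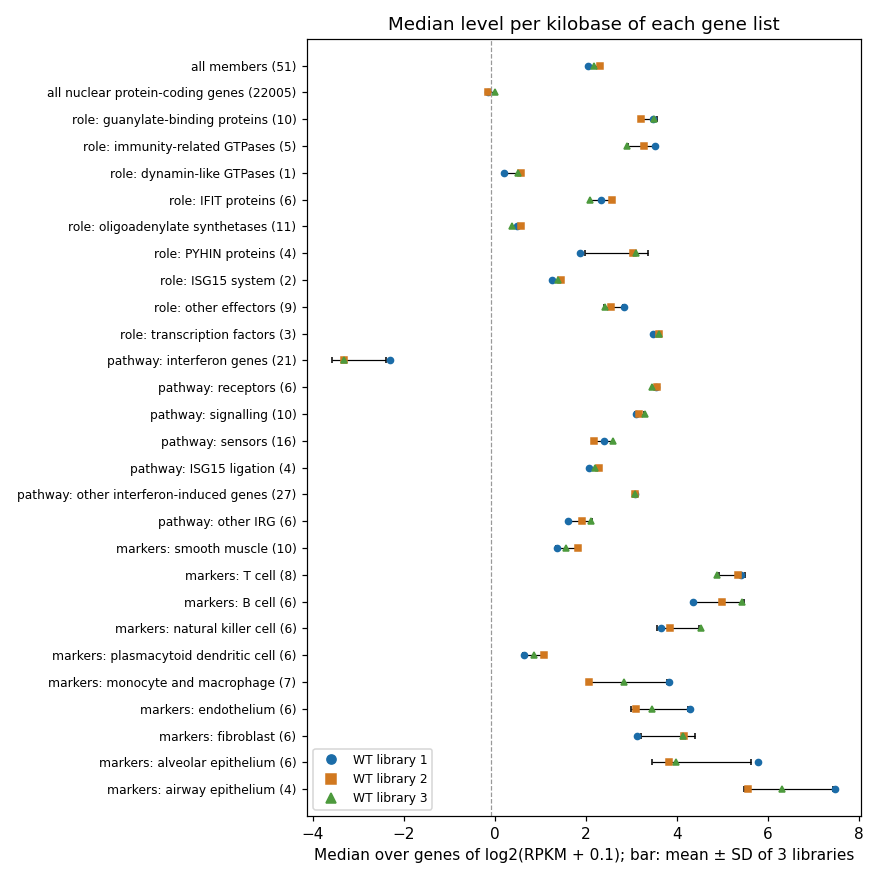
Median over genes of log2(RPKM + 0.1) for each list, with its number of genes, 1 symbol per library and the mean ± SD of 3 libraries as a bar. The dashed line is the median of all nuclear protein-coding genes, at -0.10. Members lie at 2.18, transcription factors and guanylate-binding proteins above them, and interferon genes far below.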

How the data were processed

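Per the labels' protocols, total RNA from 3 WT samples was isolated on miRNeasy columns with DNase digestion, and strand-specific SMARTer libraries followed. The authors' deposited table holds read counts per Ensembl gene, not normalized. FastQC, Trimmomatic 0.38, STAR 2.6.1d, featureCounts 1.6.3 and DESeq2 1.18.1 are named in the submitters' processing notes, with no order or settings. The notes list human builds, whereas the gene IDs are mouse, and 48 of 51 members had the coordinates of GENCODE M21 (GRCm38). Columns named as controls were assigned to WT libraries by number. Exon lengths were unions of exons in GENCODE M21, and sequence sharing was the percent of 50-base words of a gene that occur in any transcript of a different gene. Levels used library totals, and the chi-square test used library sizes scaled by TMM. TMM factors (edgeR 4.0.16), DESeq2 1.42.0 size factors and the protein-coding total were alternatives for levels, and library totals and DESeq2 size factors for the test. Pair ratios used a prior count of 0.5 and required at least 10 counts over the libraries for both genes, which 29 of 30 pairs met. The chi-square test, adjusted by Benjamini-Hochberg over 23317 genes at a threshold of 0.05, was tested on simulated data. By the rule for named genes, values in every library were given for members averaging 10 CPM or more and for members of pairs, and counts and ranges for the rest; of other lists the 3 highest by mean CPM and the lowest were named, with the receptors, interferons and Stat2. Cxcl9, Cxcl10 and Gbp11, the search on Gbp2b, and the genes of the closing section were chosen after values were seen. The members, lists and pairs were chosen with earlier results of these data known. Protein sequences were not used here. Some results are not reported here.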

Additional observations from a re-analysis of the deposited data

How the results depend on the processing

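The summed CPM of the members was 1308 and became 2197 when scaled to the protein-coding total, and their list median of 3.97 became 4.68 with that total, 4.23 over members averaging 1 CPM or more and 3.65 with the mean over members. The same total put 5 members at 100 or more in place of 2, and the share of all genes there was not computed. Of 48 members with at least 10 counts, 44 moved by more than 1 SD under the protein-coding total, and 0 under TMM or DESeq2 size factors. The protein-coding total is a smaller divisor that raises every gene's value. The TMM and DESeq2 factors keep the average scale of the totals and so move a mean over libraries little. These counts therefore do not measure how stable the members are. Leaving out 1 library cannot move a mean of 3 by 1 SD. It moved the mean CPM by over 1.5 times for Rsad2 (7.47, and 4.64 without library 2), Ifi202b (1.39, and 0.604 without library 1), Oas1d (0.196, and 0.0296 without library 1) and Ifi27l2b (0.415, and 0.252 without library 1). The members varying beyond counting error were 35, and 23 to 28 without 1 library, 23 being the value without library 1; the shares of all genes called in those fits were 38.2% to 56.8%. Members highest in library 3 were 18, and 10 under TMM. Without length, 4 pair ratios changed sign, namely Irf9 to Irf7 at 0.43, Gbp2 to Gbp7 at -0.33, Gbp4 to Gbp8 at 0.83 and Isg15 to Usp18 at -1.20, and 19 others moved by more than their SD. A prior count of 5 moved 0 of 29 ratios by more than their SD. The ratio of Isg15 to Usp18 was 0.68, and 0.09 without library 3, and that of Mx1 to Mx2 0.64, and 0.18 without library 1. The ISRE core with a further C at its end was in windows of 14 of 36 members (0.944% of all symbols), against 21 (3.99%). No paired analysis was possible because the labels hold 1 group. Depth limits Oas1d, Oas1e, Oas1f, Oas1h, Ifi44l and Ifi27l2b, which had few counts.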

Other observations

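Irf8, a factor of B cells and myeloid cells, had 69.6, 115 and 169 CPM in libraries 1, 2 and 3, and Ciita, the activator of class II antigen presentation genes, 39.6, 49.1 and 66.5 CPM. Ddx60, an antiviral helicase, had 7.25, 22.3 and 17.7 CPM and, like Rsad2, was lowest in library 1 and highest in library 2. These values were singled out after they were seen, and no explanation was tested.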
